A study of Mus musculus with 11 samples.

Results

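The transcripts of 10 genes of ER-associated degradation were followed in hepatocytes of mice with and without XBP1. The genes are *Edem1*, *Edem2*, *Edem3*, *Os9*, *Sel1l*, *Syvn1*, *Herpud1*, *Derl1*, *Derl2* and *Derl3*, chosen as core components of this route, and each was found by its mouse symbol among 54232 Ensembl genes. All 10 passed the filter on low counts, along with 13303 genes in all. RNA-seq counts came from 11 libraries of isolated hepatocytes of adult male C57BL/6 mice. *Xbp1* fl/fl mice carry floxed *Xbp1* alleles, and *Xbp1* LKO mice carry the same alleles with Cre driven by the albumin promoter, which removes exon 2 in hepatocytes. Mice of either genotype ate standard chow or the high fat sugar diet (HFS), a western diet with fructose and glucose in the drinking water, for up to 6 weeks. The 2 genotypes are called controls and knockouts in what follows. There were 3 libraries of chow-fed *Xbp1* fl/fl mice, 2 of chow-fed *Xbp1* LKO mice, 3 of HFS-fed *Xbp1* fl/fl mice and 3 of HFS-fed *Xbp1* LKO mice. Each HFS library was a pool of 2 mice, while no pooling is stated for the chow libraries, so the spread between libraries is not of the same kind on the 2 diets. The ages of the mice are not given in the sources used here.

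ER-associated degradation removes proteins that fail to fold in the endoplasmic reticulum (ER). EDEM proteins trim mannose from the glycans of such proteins, the lectin OS9 reads the trimmed glycan, and the ubiquitin ligase SYVN1 (HRD1) with its partner SEL1L, helped by HERPUD1 and the derlins, passes the protein across the membrane to the ATPase VCP and the proteasome. Hepatocytes secrete most plasma proteins and so depend on this disposal route. XBP1 is the transcription factor that the ER stress sensor IRE1α (*Ern1*) activates by splicing, and several genes of the route are known targets of XBP1 or of its relative ATF6.

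Expression is given in CPM, a gene's counts scaled to a common library size, with sizes normalized by edgeR's TMM method on the bulk of genes. Total counts ranged from 19191032 to 23888401 per library. *Xbp1* itself was at 194, 200 and 221 CPM in the chow control libraries and at 95.7 and 128 CPM in the chow knockout libraries. After HFS feeding it was at 301, 295 and 242 CPM against 117, 97.3 and 135 CPM. Each knockout library was thus below each control library, although a count per gene cannot single out the deleted exon. *Ern1*, which encodes IRE1α, overlapped between genotypes on the HFS diet (93 to 106 CPM against 103 to 108 CPM). On chow, both knockout libraries (100 and 156 CPM) were above the control libraries (60.1 to 97.2 CPM), as in 15.4% of all genes. The higher of the 2 was library 2. *Ern1* did not pass edgeR's quasi-likelihood test at an adjusted p under 0.05 on either diet. With library totals as the scale it passed on chow.

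The hepatocyte label held for every library, since the summed level of 14 hepatocyte markers was 60620 CPM in the lowest library and 198900 CPM in the highest, with *Alb* as the most abundant. That sum was lower in each knockout library than in each control library, all 14 had a negative log2 fold change on both diets, and 1 was called lower on each (*Alb* on chow and *Apoa1* on the HFS diet, named after their values were seen). DESeq2 called 4 of them lower on chow and 6 on the HFS diet, and without library 2 of the chow knockout group the call of *Alb* was lost. The 12 sinusoidal endothelial markers, led by *Stab2*, summed to 132, 53.6 and 71.7 CPM in the chow control libraries and to 43.2 and 33 CPM in the chow knockout libraries. They summed to 179, 105 and 153 CPM against 145, 92.8 and 84.2 CPM on the HFS diet. All 12 had a negative log2 fold change in knockout hepatocytes on either diet. The edgeR quasi-likelihood test called none, with 10 at an unadjusted p under 0.05 on chow and 0 on the HFS diet. DESeq2 called 7 and 0 of them. Of all 13303 genes, 2561 on chow and 2322 on the HFS diet had an unadjusted p under 0.05 in that edgeR test. DESeq2 called 699 of 13647 genes lower on chow and 537 on the HFS diet. The 12 macrophage markers, led by *Cd5l*, summed to 93.7, 21.6 and 22.3 CPM against 25.4 and 36.8 CPM on chow, and to 59.4, 47 and 42 CPM against 59.6, 64.2 and 105 CPM on the HFS diet. The 12 stellate cell markers, led by *Dcn*, summed to 45.6, 14.6 and 17 CPM against 9.77 and 10.5 CPM on chow, and to 44.8, 29.1 and 25.3 CPM against 66.4, 37.8 and 31.9 CPM on the HFS diet. Of the 11 stellate markers tested 11 had a negative log2 fold change on chow and 2 on the HFS diet, and edgeR's quasi-likelihood test called none, with 4 and 1 at an unadjusted p under 0.05, where DESeq2 called 2 and 0. Of the macrophage markers 12 of 12 had a negative log2 fold change on chow and 0 of 12 on the HFS diet. The 12 lymphocyte and plasma cell markers, led by *Ighm*, summed to 1.91 CPM in the lowest library and 12.7 CPM in the highest. The 12 genes induced by tissue digestion, led by *Zfp36*, summed to 431 CPM in the lowest library and 796 CPM in the highest, both of them HFS control libraries. Of the 11 tested, 4 had a negative log2 fold change on chow (median 0.28) and 9 on the HFS diet (median -0.23). DESeq2 called 1 of them higher on each diet and 1 lower on the HFS diet. In edgeR's quasi-likelihood test *Atf3* alone, named after its values were seen, was called, higher in knockouts on both diets. Its log2 fold change was 4.80 on chow (edgeR quasi-likelihood test, Benjamini-Hochberg adjusted p = 0.00519) and 3.09 on the HFS diet (adjusted p = 0.0304). Without library 2 of the chow knockout group its value on chow was 2.87. It was at 0.496, 1.21 and 0.946 CPM against 6.53 and 43 CPM on chow, and at 0.953, 0.611 and 0.686 CPM against 6.72, 3.24 and 9.43 CPM on the HFS diet. No marker of these lists was at 0 in all libraries. The part of other cells in the results below was not tested, and in these bulk samples fewer cells of a type and less RNA per cell cannot be told apart.

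Library 2 of the chow knockout group stood apart from the rest. Its median distance to the other libraries (root mean square difference in log2 CPM) was 0.83, against 0.643 to 0.723 for the other 10. *Alb* took 1.67% of its counts, the lowest share of the 11, against 3.72% in library 1 of that group. *Ddit3*, which encodes the stress-induced factor CHOP, was at 132 CPM there and at 23.6 CPM in library 1. *Hspa5*, which encodes the ER chaperone BiP, was at 2640 CPM there and at 786 CPM in library 1. Of the 10 genes, 4 had their highest level of all libraries in it (*Sel1l*, *Syvn1*, *Derl1* and *Derl3*), and *Derl2* had its lowest. The values of the 10 genes on chow are therefore given with and without this library, as are the counts of other lists, a choice made after seeing the data where lists and correlations are concerned. Without it 1 library represents the group, and that library is assumed to vary like those of the other groups.

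When knockout hepatocytes were compared with control hepatocytes, 2 of the 10 genes were called on chow and 3 on the HFS diet, all of them lower. Those on chow, at an adjusted p under 0.05, were *Edem1* and *Edem2*. The background is 4.75% of all genes called in either direction and 3.02% called lower. Those on the HFS diet were *Edem1*, *Edem2* and *Os9*, against 4.08% of all genes called and 2.16% called lower. In 4 of the 10 (*Edem1*, *Edem2*, *Os9* and *Derl2*) no knockout library reached the lowest control library, on either diet. Over all genes, 15.9% separated in this way on chow and 12.5% on the HFS diet. The median log2 fold change of the 10 genes was -0.11 on chow, where that of all genes was 0.0024, and -0.31 on the HFS diet, where that of all genes was 0.0083. Without library 2 of the chow knockout group none of the 10 was called on chow and 9 of the 10 had a negative log2 fold change, with a median of -0.38. In that fit 0.498% of all genes were called. The 2 genotype comparisons share no library, but they were fitted with 1 common estimate of spread.

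**Figure D1:**
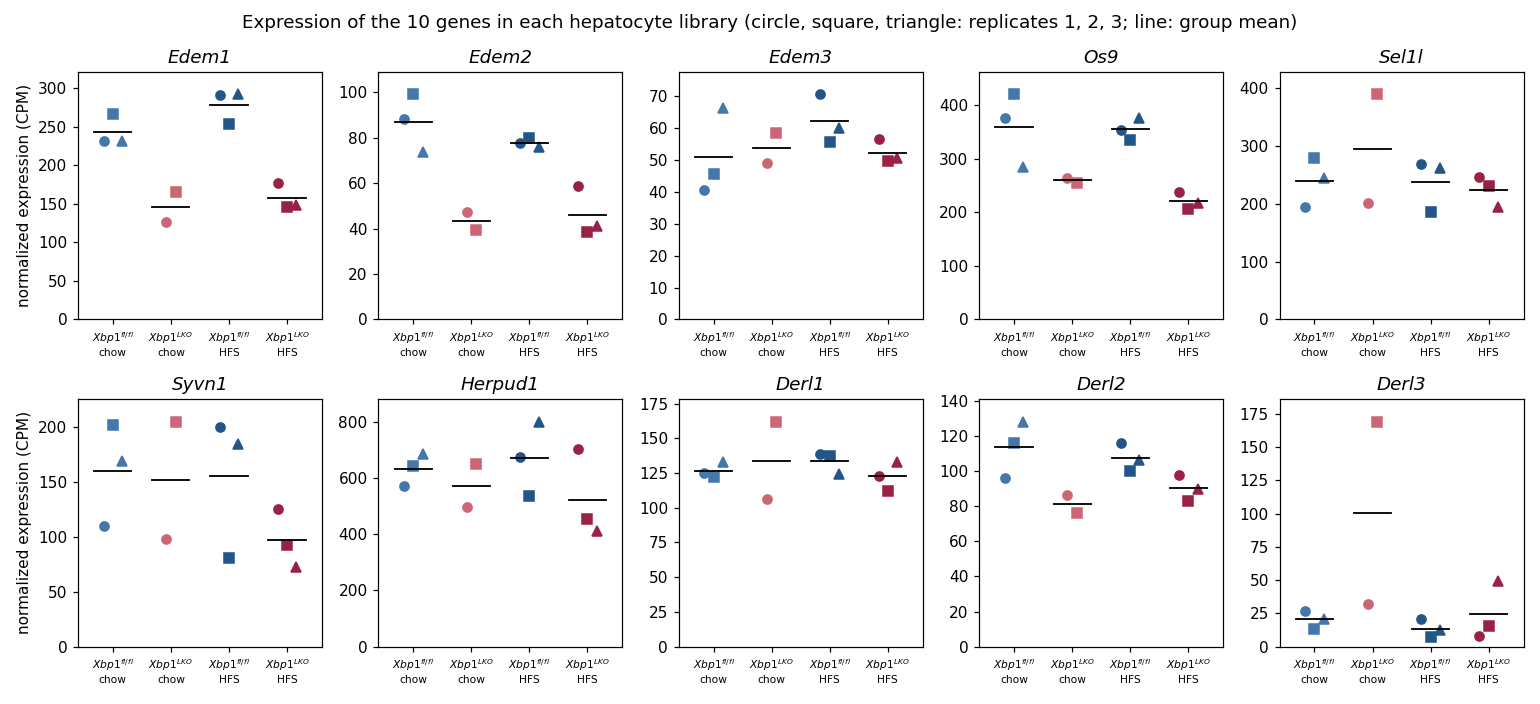
Normalized expression in CPM (vertical axes, from 0) of the 10 genes in each of the 11 libraries, by genotype and diet (horizontal axes), with replicates 1, 2 and 3 as circles, squares and triangles and the group mean as a line. *Edem1*, *Edem2*, *Os9* and *Derl2* lie lower in *Xbp1* LKO libraries on both diets without overlap, and *Derl3* reaches 169 CPM in library 2 of the chow-fed *Xbp1* LKO group against at most 49.3 CPM elsewhere.

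*Edem1* (ENSMUSG00000030104), a mannosidase-like protein that draws misfolded glycoproteins out of the folding cycle, lies on the plus strand of chromosome 6 from 108828641 to 108859356 (GRCm38). It was at 232, 267 and 232 CPM in chow control libraries and at 126 and 165 CPM in chow knockout libraries. HFS feeding left it at 291, 253 and 292 CPM in control and at 177, 146 and 149 CPM in knockout libraries. The highest knockout library of all was therefore below the lowest control library of all. On the HFS diet *Edem1* fell by 43.6% (log2 fold change -0.83, standard error 0.14, 95% confidence interval -1.13 to -0.53, edgeR quasi-likelihood test, Benjamini-Hochberg adjusted p = 0.00796). That call held under each of the 13 alternatives run, with adjusted p from 8.06e-07 to 0.0492. On chow *Edem1* fell by 40.3% (log2 fold change -0.74, standard error 0.16, edgeR quasi-likelihood test, Benjamini-Hochberg adjusted p = 0.0222). The call on chow was lost when library 2 of the chow knockout group was left out, although the log2 fold change was then larger at -0.96 (edgeR's quasi-likelihood test, adjusted p = 0.057). It was also lost without library 1 of that group, at a log2 fold change of -0.561. The same held without library 2 of the chow control group (-0.673, edgeR's quasi-likelihood test, adjusted p = 0.0707). Fitting only the chow groups gave -0.746 and a replicate block gave -0.758 (edgeR's quasi-likelihood test, adjusted p = 0.105 and 0.0547). With library totals as the scale *Edem1* was at -0.404 (edgeR's quasi-likelihood test, adjusted p = 0.0841). The range of adjusted p over 12 alternatives was 0.000162 to 0.105.

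*Edem2* (ENSMUSG00000038312), which trims the first mannose that marks a glycoprotein for disposal, lies on the minus strand of chromosome 2 from 155701677 to 155729475. Its level was 88.3, 99.1 and 73.7 CPM in chow control libraries against 47.2 and 39.2 CPM in chow knockout libraries. With HFS feeding the levels were 77.9, 79.8 and 76 CPM against 58.6, 38.5 and 41 CPM. The groups did not overlap on either diet, and library 1 of the HFS knockout group was the nearest to the controls. *Edem2* fell by 50.4% on chow (log2 fold change -1.01, standard error 0.19, edgeR quasi-likelihood test, Benjamini-Hochberg adjusted p = 0.0127). Leaving out library 2 of the chow knockout group gave -0.88 (edgeR's quasi-likelihood test, adjusted p = 0.148), the one setting of 12 in which the call on chow was lost; adjusted p over them ran from 6.66e-07 to 0.148. *Edem2* fell by 40.9% on the HFS diet (log2 fold change -0.76, standard error 0.16, edgeR quasi-likelihood test, Benjamini-Hochberg adjusted p = 0.027). Here each library but knockout library 1 was needed for the call in edgeR's quasi-likelihood test. Over the 13 alternatives the log2 fold change ran from -0.968 to -0.509. The call was lost without control library 1, 2 or 3 (-0.759, -0.741 and -0.777, edgeR's quasi-likelihood test, adjusted p = 0.0825, 0.0781 and 0.0741). It was also lost without knockout library 2 or 3 (-0.645 and -0.682, edgeR's quasi-likelihood test, adjusted p = 0.124 and 0.103). Over 13 alternatives adjusted p ran from 2.57e-05 to 0.124.

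*Edem3*, the third mannosidase of the family, was at 40.5, 45.6 and 66.4 CPM in chow control libraries and at 49 and 58.4 CPM in chow knockout libraries. Its HFS levels were 70.6, 55.8 and 60 CPM against 56.5, 49.6 and 50.5 CPM. The groups overlapped on both diets. The log2 fold change was 0.08 on chow, with a 95% confidence interval of -0.34 to 0.50, and -0.25 on the HFS diet, with an interval of -0.63 to 0.12. Without library 2 of the chow knockout group the value on chow was -0.06 (-0.60 to 0.49). A difference between *Edem3* and the other EDEM genes was not tested.

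*Os9* (ENSMUSG00000040462), the lectin that presents trimmed glycoproteins to the ligase complex, lies on the minus strand of chromosome 10 from 127095650 to 127121131. Chow-fed control libraries had 375, 420 and 284 CPM and chow knockout libraries 264 and 255 CPM. HFS control libraries had 353, 335 and 376 CPM and HFS knockout libraries 238, 206 and 217 CPM. The gap was wide on the HFS diet and narrow on chow, where library 3 of the control group came close to the knockout. *Os9* fell by 37.9% on the HFS diet (log2 fold change -0.69, standard error 0.15, edgeR quasi-likelihood test, Benjamini-Hochberg adjusted p = 0.0247). The call was lost without control library 1, 2 or 3 (-0.69, -0.725 and -0.644, edgeR's quasi-likelihood test, adjusted p = 0.0787, 0.0534 and 0.0935). It was also lost without knockout library 2 or 3 (-0.638 and -0.675, edgeR's quasi-likelihood test, adjusted p = 0.118 and 0.0811). With library totals *Os9* was at -0.43 and not called (edgeR's quasi-likelihood test, adjusted p = 0.062). Over 13 alternatives adjusted p ran from 0.000159 to 0.118. On chow the log2 fold change was -0.47 (95% confidence interval -0.83 to -0.11, edgeR quasi-likelihood test, Benjamini-Hochberg adjusted p = 0.136), and it was -0.45 without library 2 of the chow knockout group. With library 3 of the chow control group left out, *Os9* was called lower on chow as well (-0.61, edgeR's quasi-likelihood test, adjusted p = 0.0284; range over 12 alternatives 0.0284 to 0.511). Its effects on the 2 diets differed by -0.22 on the log2 scale (95% confidence interval -0.69 to 0.26), so a difference between diets was not shown.

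*Syvn1*, the ubiquitin ligase of the membrane complex, was at 110, 202 and 169 CPM in chow control libraries and at 98.3 and 205 CPM in chow knockout libraries. In HFS libraries it was at 200, 80.5 and 185 CPM against 125, 93 and 72.7 CPM. The 2 chow knockout libraries hold the highest level of the 11 and 1 of the lower ones, and library 2 of the HFS control group is as low as the knockout, so the groups overlapped on both diets. The log2 fold change was -0.08 on chow (95% confidence interval -0.98 to 0.82) and -0.71 without library 2 of the chow knockout group (-1.80 to 0.38). With HFS feeding it was -0.68 (95% confidence interval -1.49 to 0.13), which did not pass the test and spans the value of *Edem1*. With no filter on low counts *Syvn1* was called lower there (edgeR quasi-likelihood test, adjusted p = 0.00229; range over 13 alternatives 0.00229 to 0.679). Of the merged exons of *Syvn1*, 91 bases overlap *Mrpl49* on the opposite strand, and the study's methods name a stranded mRNA kit where the sample labels name a total RNA kit. Whether the counting used strand is not given in the sources used here.

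*Sel1l*, the adaptor that holds the ligase complex together, was at 195, 279 and 244 CPM in chow control libraries and at 201 and 389 CPM in chow knockout libraries. HFS-fed libraries had 268, 185 and 261 CPM in controls and 246, 231 and 195 CPM in knockouts. Apart from the 389 CPM of library 2, the knockout libraries lay within the range of the controls, and below the 3 highest of them. On chow the log2 fold change was 0.30 (95% confidence interval -0.28 to 0.88), and leaving out that library turned it to -0.26 (-0.82 to 0.31). With HFS feeding it was -0.09 (95% confidence interval -0.60 to 0.43); a log2 fold change of 1 in either direction lies outside that interval.

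*Herpud1*, a stress-induced membrane protein that brings substrates and ubiquilins to the ligase, was the most abundant of the 10 in CPM. It was at 571, 641 and 686 CPM in chow control libraries and at 495 and 648 CPM in chow knockout libraries. Its HFS level was 676, 534 and 800 CPM against 702, 454 and 411 CPM. Libraries of both genotypes were mixed along the range. The log2 fold change was -0.15 on chow (95% confidence interval -0.68 to 0.39), -0.36 without library 2 of the chow knockout group and -0.36 on the HFS diet (95% confidence interval -0.84 to 0.12).

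The 3 derlins are membrane proteins that form part of the channel for retrotranslocation. *Derl1* was at 125, 122 and 133 CPM in chow control libraries and at 106 and 162 CPM in chow knockout libraries. HFS control libraries had 139, 137 and 124 CPM and HFS knockout libraries 123, 112 and 133 CPM. It was the steadiest of the 10, with a ratio of 1.54 between its highest and its lowest library, both of them chow knockout libraries. Its log2 fold change was 0.08 on chow (95% confidence interval -0.28 to 0.44), turning to -0.26 without library 2 of that group, and -0.12 on the HFS diet (-0.45 to 0.20).

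*Derl2* was at 95.9, 116 and 128 CPM in chow control libraries and at 86.5 and 76 CPM in chow knockout libraries. With HFS feeding it was at 116, 99.9 and 106 CPM against 97.4, 83 and 89.6 CPM. The knockout was the lower group on both diets without overlap, by a margin that was small beside the spread within groups. The log2 fold change of -0.48 on chow (95% confidence interval -0.79 to -0.17, edgeR quasi-likelihood test, Benjamini-Hochberg adjusted p = 0.0812) and of -0.25 on the HFS diet (-0.53 to 0.02, adjusted p = 0.335) did not pass. Without library 2 of the chow knockout group the value on chow was -0.39 (-0.79 to 0.01). On chow it passed with DESeq2 (adjusted p = 0.0296) and when library 1 of the chow control group was left out of the edgeR quasi-likelihood fit (adjusted p = 0.0407); over 12 alternatives adjusted p ran from 0.0296 to 0.472. Of its merged exons, 231 bases overlap *Mis12* on the opposite strand.

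*Derl3*, a derlin best known from secretory cells under ER stress, had the widest spread, with a ratio of 22.2 between its highest and lowest library. It was at 27.1, 13.6 and 20.9 CPM in chow control libraries and at 32.1 and 169 CPM in chow knockout libraries. The HFS libraries had 20.6, 7.58 and 12.5 CPM against 8.07, 15.5 and 49.3 CPM. Its 2 highest libraries, library 2 of the chow-fed and library 3 of the HFS knockout group, were also the 2 with the most *Ddit3* (132 and 44.5 CPM). *Derl3* was the member whose chow groups separated upward in knockout libraries, as did 15.4% of all genes. The log2 fold change on chow of 2.29 (95% confidence interval 0.67 to 3.91, edgeR quasi-likelihood test, Benjamini-Hochberg adjusted p = 0.108) was not called and rested on library 2: without it the value was 0.64 (-1.06 to 2.34). It was called higher on chow with library totals as the scale (2.65, adjusted p = 0.0308), with no filter on low counts (2.31, adjusted p = 6.57e-22) and without library 1 of that group (3.03, adjusted p = 0.0332), all by edgeR's quasi-likelihood test, and adjusted p ran from 6.57e-22 to 0.873 over 12 alternatives. Its log2 fold change on the HFS diet was 0.84 (95% confidence interval -0.66 to 2.35), and with no filter on low counts it was called (0.85, edgeR's quasi-likelihood test, adjusted p = 0.00051; range over 13 alternatives 0.00051 to 0.935). Without library 3 of the HFS knockout group it was -0.20. Plasma cells also express *Derl3*. The study's methods include a Percoll density step to purify the hepatocytes. The 12 lymphocyte and plasma cell markers summed to 3.19 CPM in library 2 of the chow knockout group, against 7.08 CPM in library 1, and to 12.7 CPM, their highest of the 11, in library 3 of the HFS knockout group. Of these markers 4 were tested, with 1 negative log2 fold change on chow and 0 on the HFS diet (medians 0.59 and 0.89). Neither edgeR's quasi-likelihood test nor DESeq2 called any of the 4. The part of such cells in the levels of *Derl3* was not tested.

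**Figure D2:**
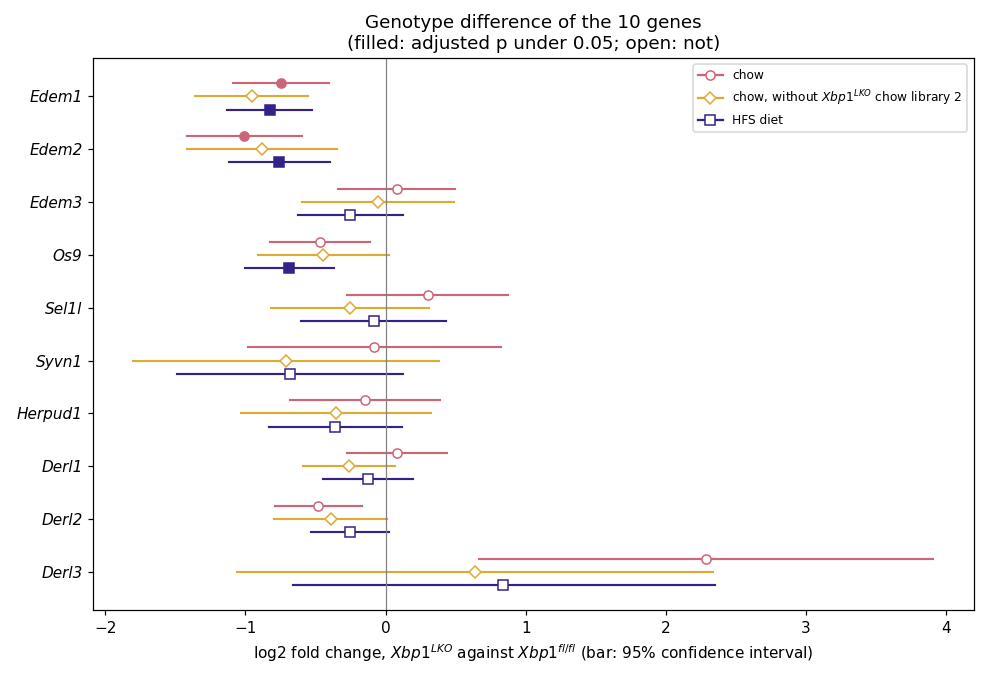
Log2 fold change of *Xbp1* LKO against *Xbp1* fl/fl hepatocytes (horizontal axis) for each of the 10 genes (vertical axis) on chow, on chow without library 2 of the chow-fed *Xbp1* LKO group, and on the HFS diet, with 95% confidence intervals as bars and filled symbols where the adjusted p was under 0.05. *Edem1* and *Edem2* lie below 0 in all 3 fits, and *Derl3* moves from 2.29 to 0.64 when that library is left out.

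With library totals in place of TMM factors, the median log2 fold change of all genes moved to 0.33 on chow and to 0.27 on the HFS diet, and the genes called turned from 230 higher and 402 lower to 2685 higher and 315 lower on chow, and from 256 higher and 287 lower to 1288 higher and 195 lower on the HFS diet. *Syvn1* and *Herpud1* on chow, and *Edem3*, *Sel1l*, *Derl1* and *Derl2* on the HFS diet, turned positive with this common shift. Relative to the median of all genes they were at -0.05 and -0.14 on chow and at -0.27, -0.10, -0.13 and -0.27 on the HFS diet. On the same relative scale *Edem1* was at -0.73 on chow and -0.84 on the HFS diet, *Edem2* at -1.02 and -0.78, and *Os9* at -0.47 and -0.70. Subtracting that median re-centres the bulk of genes, much as TMM does. Likeness of these values to those after TMM was therefore built in.

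The effect of the HFS diet was asked next, within each genotype. Among control hepatocytes none of the 10 genes was called by edgeR's quasi-likelihood test or by DESeq2, with 0.428% of all genes called by edgeR. None of the 10 had an unadjusted p under 0.05 in the edgeR test, against 1190 of all 13303 genes. *Edem3* had the highest log2 fold change (0.29, 95% confidence interval -0.09 to 0.66) and *Derl3* the lowest (-0.60, -2.12 to 0.92). Their groups overlapped, as did those of the other 8. In knockout hepatocytes, none of the 10 was called by either tool and *Derl3* alone had an unadjusted p under 0.05, with 0.0601% of all genes called. *Derl3* was at -2.04 (95% confidence interval -3.65 to -0.44) between the diets in the knockout, and at -0.39 (-2.10 to 1.31) without library 2 of the chow-fed group. With no filter on low counts, edgeR's quasi-likelihood test called *Derl3* (adjusted p = 2.04e-17, range over 12 alternatives 2.04e-17 to 0.962) and *Syvn1* (adjusted p = 0.0195, range 0.0195 to 0.999) lower in the HFS-fed knockout. Log2 fold changes in this comparison were also positive for 12 of 12 endothelial (median 1.55), 11 of 11 stellate (median 2.28) and 12 of 12 macrophage markers (median 1.19). The edgeR quasi-likelihood test called none of these, with 12, 9 and 5 at an unadjusted p under 0.05, and DESeq2 called 10, 5 and 0. Of all 13303 genes, 1683 had an unadjusted p under 0.05 in that edgeR test, and DESeq2 called 150 of 13647 genes higher. The part of these markers in the values of the 10 genes was not tested. In controls 12 of 12 endothelial (median 0.80) and 11 of 11 stellate markers (median 0.52) were positive as well, and 7 of 12 macrophage markers (median 0.04). For the interaction all of these 3 lists were positive, with medians of 0.73, 1.73 and 1.17 for endothelial, stellate and macrophage markers. *Os9* was lower in each HFS-fed than in each chow knockout library (log2 fold change -0.24, 95% confidence interval -0.59 to 0.12), a separation that 14.4% of all genes showed. The interaction, which asks whether the genotype effect differs between diets, called 0% of all genes in edgeR's quasi-likelihood test, where 816 of 13303 had an unadjusted p under 0.05, while DESeq2 called 31. None of the 10 genes was among either, although *Derl3* was called with no filter on low counts (edgeR quasi-likelihood test, adjusted p = 0.00014, range over 17 alternatives 0.00014 to 1), and their interaction values ran from -1.44 (*Derl3*) to 0.25 (*Edem2*), with 8 of 10 negative and a median of -0.21. Without library 2 of the chow knockout group the value of *Derl3* was 0.20, 3 of 10 were negative and the median was 0.13. The interval for *Edem1*, -0.53 to 0.37, spans 0, so a difference between its genotype effects on the 2 diets was not shown.

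Levels of different genes were compared per length, as counts per kilobase of merged exons scaled to the same total in each library. In chow control libraries *Herpud1* came highest at 644 ± 50.7 (SD, n = 3) and *Os9* next at 325 ± 61.5 (SD, n = 3). *Derl1* (90.5 ± 4.8), *Edem1* (89.6 ± 6), *Syvn1* (78.2 ± 21.2), *Sel1l* (66.3 ± 10.2) and *Edem2* (59.7 ± 8.39) followed, and neighbours in that run did not differ beyond their spread. *Derl2* (33.4 ± 4.37), *Derl3* (24.7 ± 8.6) and *Edem3* (18.9 ± 4.99) were the lowest, and neighbours among these overlapped too. In HFS knockout libraries *Herpud1* (666 ± 165, SD, n = 3) and *Os9* (251 ± 5.88, SD, n = 3) kept the top of the order per length. In the chow-fed controls *Edem1* and *Derl1* were level, and in HFS control libraries they were at 106 ± 9.17 and 97.9 ± 7.76 (SD, n = 3). In HFS knockout libraries *Edem1* (72.9 ± 4.22) stood below *Derl1* (110 ± 9.74). *Edem2* per length (39.6 ± 7.21) was near *Derl2* (33.5 ± 1.03) in that group. *Vcp*, the ATPase that pulls substrates out, stood at 32.3 ± 4.01 per length in chow control libraries, about the level of *Derl2*.

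The 10 genes did not move as a block across the libraries. As a description over the 11 libraries, which share groups and scaling, the log2 CPM of *Syvn1* followed the mean of the other 9 most closely (Pearson's r = 0.831), ahead of *Herpud1* (0.664) and *Sel1l* (0.644). *Edem2* (0.235) and *Derl2* (0.323) followed it weakly, and *Derl3* ran against it (-0.202). Library 2 of the chow knockout group bore on this. Without it, *Derl2* followed most closely over 10 libraries (r = 0.864), ahead of *Syvn1* (0.8) and *Edem1* (0.766). Then r was 0.711 for *Os9*, 0.693 for *Edem2*, 0.685 for *Herpud1* and 0.56 for *Sel1l*. It was 0.447 for *Derl1*, 0.309 for *Edem3* and -0.388 for *Derl3*. In that library *Sel1l* and *Syvn1* were 1.94 and 2.09 times their level in library 1 of the group and *Derl3* was 5.26 times, whereas *Edem2*, *Derl2* and *Os9* were at 0.831, 0.879 and 0.964 times.

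**Figure D3:**
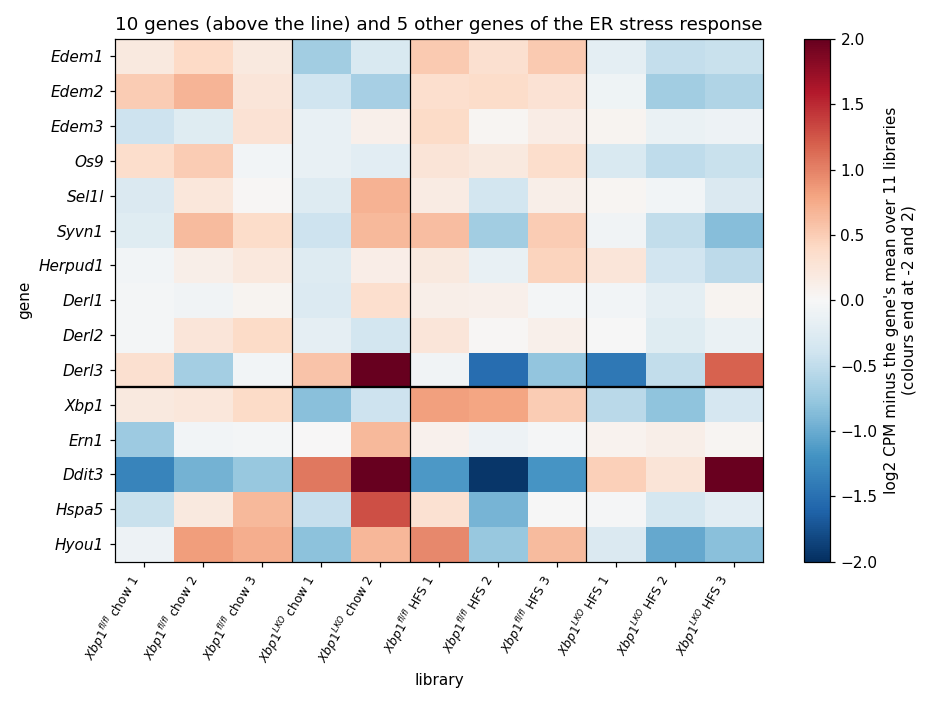
Log2 CPM minus the mean of the gene over 11 libraries (colour, from -2 to 2) for the 10 genes and for *Xbp1*, *Ern1*, *Ddit3*, *Hspa5* and *Hyou1* (vertical axis) in each library (horizontal axis). *Edem1* and *Edem2* follow the genotype, *Syvn1* and *Hyou1* vary within groups, and *Derl3* and *Ddit3* are both at their highest in library 2 of the chow-fed *Xbp1* LKO group.

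Among other genes with at least 1 CPM, the pattern most like the mean of the 10 over the 11 libraries by Pearson's r was that of *Hyou1*, an ER chaperone of the HSP70 family (Pearson's r = 0.958, Spearman's rho = 0.927). *Cad* (0.952, with the higher rho of 0.936), *Manf* (0.934), *Creld2* (0.919), *Canx* (0.904), *Dnajb11* (0.896), *Txlna* (0.894), *Sdf2l1* (0.892), *Pcbd2* (0.891) and *Prpf18* (0.884) came next by Pearson's r. Without library 2 of the chow knockout group r was 0.973 for *Hyou1* and 0.862 for *Sdf2l1*. *Hyou1* was at 192, 366 and 341 CPM in chow control libraries and at 117 and 328 CPM in chow knockout libraries, so it varied within groups as *Syvn1* did.

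Other genes of the degradation route were read from lists. Calls by edgeR in these and later lists stand beside 3.02% of all genes called lower on chow and 2.16% on the HFS diet. Calls by DESeq2 stand beside 699 of 13647 genes called lower on chow and 537 on the HFS diet. Counts at an unadjusted p under 0.05 (edgeR's quasi-likelihood test) stand beside 2561 of 13303 genes on chow and 2322 on the HFS diet. Of 11 further lumenal factors 10 were tested, with a median log2 fold change of -0.57 on chow and -0.32 on the HFS diet. On chow 1 was called lower, *Dnajc10*, a reductase of misfolded proteins (-0.99, edgeR quasi-likelihood test, Benjamini-Hochberg adjusted p = 0.00776). On the HFS diet *Dnajc10* (-0.58, adjusted p = 0.0469) and the folding sensor *Uggt1* (-0.90, adjusted p = 0.032) were called lower in the same edgeR quasi-likelihood fit. DESeq2 called 4 lumenal factors lower on chow and 3 on the HFS diet. *Dnajc10* was at 30.2, 27.8 and 36.5 CPM against 17 and 14.8 CPM on chow, and at 27.9, 32.8 and 26.3 CPM against 21.8, 16.5 and 20.1 CPM on the HFS diet, with no overlap. *Erlec1*, a lectin related to *Os9*, was not called by edgeR's quasi-likelihood test (-0.45 on chow, 95% confidence interval -0.71 to -0.19, and 0.02 on the HFS diet, -0.21 to 0.25). *Dnajb9*, the ER co-chaperone ERdj4, was not called by that test either (-0.80 on chow, -1.56 to -0.05, and -0.39 on the HFS diet, -1.05 to 0.27).

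Of 28 other membrane factors, 3 were called lower on chow, the peptidase *Hm13*, the ligase *Rnf103* and *Selenos*, a selenoprotein that recruits VCP to the membrane. Their log2 fold changes were -0.67, -0.71 and -0.69 (edgeR quasi-likelihood test, Benjamini-Hochberg adjusted p = 0.0468, 0.013 and 0.0433). On chow 10 of the 28 had an unadjusted p under 0.05 in that test, and DESeq2 called 5 lower. On the HFS diet edgeR's quasi-likelihood test called none of the 28, with 9 at an unadjusted p under 0.05, and DESeq2 called 3 lower. The ubiquitin-conjugating enzymes *Ube2j1* and *Ube2g2*, which work with ER ubiquitin ligases, had log2 fold changes on chow of -0.14 (95% confidence interval -0.40 to 0.13) and 0.08 (-0.20 to 0.35), and on the HFS diet of -0.06 (-0.30 to 0.18) and -0.13 (-0.38 to 0.11).

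Of 26 cytosolic factors tested, edgeR's quasi-likelihood test and DESeq2 called none on chow (3 with an unadjusted p under 0.05), and each called 1 lower on the HFS diet. In the edgeR quasi-likelihood fit that gene was *Ubxn4*, a VCP adaptor at the ER (-0.58, Benjamini-Hochberg adjusted p = 0.0469). *Vcp* had log2 fold changes of -0.09 on chow (95% confidence interval -0.35 to 0.17) and -0.22 on the HFS diet (-0.45 to 0.01). Its cofactors *Ufd1* (-0.02, -0.28 to 0.24, on chow and -0.17, -0.40 to 0.06, on the HFS diet) and *Nploc4* (0.02, -0.25 to 0.29, and -0.12, -0.36 to 0.12) were not called. None of 31 proteasome subunits was called by edgeR's quasi-likelihood test or DESeq2 on either diet, with 0 on chow and 2 on the HFS diet at an unadjusted p under 0.05, and their medians were -0.06 and -0.08.

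Genes that bring proteins into the ER, or fold them there, were read in the same way. Of 17 genes for translocation and signal peptide removal, 10 were called lower on chow and 5 on the HFS diet by the edgeR quasi-likelihood test and 12 and 11 by DESeq2, with medians of -0.97 and -0.47. On chow the smallest p were those of *Tram1* (-1.62), *Ssr1* (-0.89), *Spcs2* (-1.21) and *Ssr3* (-1.11), and on the HFS diet those of *Spcs2* (-0.95), *Tram1* (-0.92), *Sec61b* (-1.16) and *Sec61a1* (-0.90), all as log2 fold changes. Of 18 ER chaperones 2 were called lower on each diet, the nucleotide exchange factor *Sil1* (-0.83 on chow and -0.99 on the HFS diet) and the disulfide isomerase *P4hb* (-1.59 and -1.17). DESeq2 called 4 chaperones lower on each diet. The medians of the 18 were -0.28 on chow, with 11 negative, and -0.44 on the HFS diet, with 16 negative. *Hspa5* was not called (0.47 on chow, 95% confidence interval -0.56 to 1.49, turning to -0.66, -1.69 to 0.37, without library 2 of the chow knockout group, and -0.07 on the HFS diet, -1.0 to 0.85). Of 11 regulators of the unfolded protein response *Xbp1* was called lower and *Ddit3* higher on both diets (*Ddit3* 3.77 on chow and 2.50 on the HFS diet, and 2.04 on chow without library 2 of the chow knockout group, where it was not called). Leaving out library 2 of the chow knockout group left 2 of the 17 translocation genes called on chow (*Tram1* and *Spcs2*) and none of the lumenal, membrane, cytosolic, proteasome, chaperone or regulator genes, in a fit that called 69 genes in all. The medians on chow were then -0.85 for translocation, -0.56 for lumenal factors and -0.75 for chaperones, with 18 of 18 chaperones negative.

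With library totals as the scale, chosen after seeing the data for these lists, the calls moved with the common shift of all genes. On chow they became 1 higher and 1 lower of the lumenal factors, 8 higher and 1 lower (*Rnf103*) of the membrane factors, 7 higher of the cytosolic factors, 1 higher and 2 lower of the chaperones, and 9 lower of the translocation genes. Of the regulators 7 were then called higher on chow and *Xbp1* was not called. For the HFS diet the same scale called 0 lumenal factors, 1 membrane factor higher, 2 cytosolic factors higher without *Ubxn4*, 1 proteasome subunit higher, 2 chaperones lower and 4 translocation genes lower, and of the regulators 3 higher and *Xbp1* lower. Relative to the median of all genes on that scale, the list medians on chow were -0.57 for lumenal, -0.06 for membrane and 0.02 for cytosolic factors, -0.26 for chaperones and -0.97 for translocation. Such re-centring is much like that of TMM, so these medians were bound to lie near those after TMM.

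The promoters of the 10 genes were searched for the letters known as binding motifs of XBP1 and ATF6, since some of the genes were called lower. RefSeq promoter windows on GRCm38.p6 of 250 bases before to 50 after the start were found for 9 of the 10 genes, with 2 windows for *Derl2* and none for *Derl1*. CCACG was present on some strand in all 9 genes, for *Derl2* in 1 of its 2 windows. It was in 32.8% of all 32851 windows, a share over windows where the first count is over genes. The ER stress response element, CCAAT and CCACG separated by 9 bases, was in *Syvn1* and *Derl3*, and in 0.119% of all windows. The related form with ATTGG and CCACG separated by 1 base was in *Herpud1*, and in 0.0365% of all windows. Both contain CCACG, so the searches overlap. TGACGTG, present in 2.01% of windows, and its longer form TGACGTGG, present in 0.676%, were in none of the 9; every motif was searched on both strands. *Edem1*, *Edem2* and *Os9* held CCACG alone in these windows, as did *Edem3*, *Sel1l* and *Derl2*. A match is a description of the sequence and not a site of binding. The 250 bases before the start are shown for the genes called lower and for those that hold a complete element, on the strand of the gene, with CCACG, its reverse complement CGTGG, and the CCAAT or ATTGG of a complete element in capitals. The CCACG match of *Edem2*, on the opposite strand, begins 41 bases after the start and so lies outside the bases shown.
*Edem1*, chr6:108828391-108828640 (plus strand): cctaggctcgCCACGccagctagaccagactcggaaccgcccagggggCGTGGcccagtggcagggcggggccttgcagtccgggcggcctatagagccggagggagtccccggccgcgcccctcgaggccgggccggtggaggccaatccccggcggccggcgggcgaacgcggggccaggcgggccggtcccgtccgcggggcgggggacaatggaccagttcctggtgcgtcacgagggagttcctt
*Edem2*, chr2:155729476-155729725 (minus strand): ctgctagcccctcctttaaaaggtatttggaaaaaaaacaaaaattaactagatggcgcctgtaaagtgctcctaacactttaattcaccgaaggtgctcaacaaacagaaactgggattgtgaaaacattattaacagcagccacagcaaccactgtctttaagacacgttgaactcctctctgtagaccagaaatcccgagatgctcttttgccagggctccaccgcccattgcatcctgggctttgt
*Os9*, chr10:127121161-127121410 (minus strand): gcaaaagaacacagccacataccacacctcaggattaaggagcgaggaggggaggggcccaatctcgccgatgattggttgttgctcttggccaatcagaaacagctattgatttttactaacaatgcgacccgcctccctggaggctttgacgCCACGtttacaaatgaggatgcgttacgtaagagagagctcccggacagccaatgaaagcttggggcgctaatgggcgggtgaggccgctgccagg
*Syvn1*, chr19:6046326-6046575 (plus strand): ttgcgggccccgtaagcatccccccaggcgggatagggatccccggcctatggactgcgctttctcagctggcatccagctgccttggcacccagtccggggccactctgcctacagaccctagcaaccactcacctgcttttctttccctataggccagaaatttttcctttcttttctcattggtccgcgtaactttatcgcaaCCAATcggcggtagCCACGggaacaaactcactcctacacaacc
*Herpud1*, chr8:94386179-94386428 (plus strand): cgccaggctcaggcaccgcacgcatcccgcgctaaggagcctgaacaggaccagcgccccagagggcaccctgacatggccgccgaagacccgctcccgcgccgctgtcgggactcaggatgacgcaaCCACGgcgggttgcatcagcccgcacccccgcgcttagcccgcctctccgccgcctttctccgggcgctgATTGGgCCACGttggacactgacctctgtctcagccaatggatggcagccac
*Derl3*, chr10:75893148-75893397 (plus strand): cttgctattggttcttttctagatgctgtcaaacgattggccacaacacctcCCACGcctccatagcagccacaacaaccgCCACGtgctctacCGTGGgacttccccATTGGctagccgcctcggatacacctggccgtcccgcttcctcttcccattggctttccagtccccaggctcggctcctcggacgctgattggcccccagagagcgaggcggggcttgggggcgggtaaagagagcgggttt
In *Syvn1* the element began 44 bases before the start, in *Herpud1* 52 bases and in *Derl3* 156 bases before it, the last on the opposite strand.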

How the data were processed

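The deposited files hold whole-number counts per Ensembl gene in 1 file per library. The authors' methods name kallisto and tximport for these 50 bp reads, and their processing notes name cutadapt 1.13, STAR and HTSeq 0.6.1p1 with the build mm10; which gave the counts is not stated in the sources used here. Symbols, positions and lengths came from GENCODE M21 (54079 of 54232 genes matched). Counts were tested with edgeR 4.0.16 in R 4.3.3 (TMM, filterByExpr with a minimum count of 10, 1 quasi-likelihood fit of 4 groups, Benjamini-Hochberg adjustment over 13303 genes, threshold 0.05). The edgeR fit was tried on simulated data for the genotype effect on the HFS diet alone. Alternatives were other scalings, DESeq2 1.42.0, other filters, fits of only the groups compared, a replicate block and leaving out each library. Named genes were the 10 members, *Xbp1*, *Ern1*, fixed genes of the route, up to 4 called genes of each list with the smallest p in each direction, and the 10 most like the members' mean; other names, such as *Ddit3* values by library, were chosen after their values were seen. The members and lists were chosen with earlier results of these data known.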

Additional observations from a re-analysis of the deposited data

How the results depend on the processing

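Across all members, comparisons and alternatives, 641 member results stayed on the same side of the threshold, 18 lost a call, 11 gained a call and 0 reversed while called. Genotype effect on chow: 632 genes were called, against 3000 with library totals (2685 higher, 315 lower), 1115 with DESeq2, 1507 with no filter on low counts and 233 with only the groups compared; leaving out 1 library gave 69 to 762. The 2 members called became 1 with only the groups compared, 1 with the replicate block (*Edem1* then at an adjusted p of 0.0547 by the edgeR quasi-likelihood test, range over 12 alternatives 0.000162 to 0.105) and 0 to 3 without 1 library. Genotype effect on the HFS diet: 543 genes became 1483 with library totals, 987 with DESeq2 and 1438 with no filter, and 184 to 532 without 1 library of its groups; the 3 members became 5 with no filter and 1 to 3 without 1 library. Leaving out library 2 of the chow knockout group, chosen after seeing the data, gave 662 genes and 3 members there, and 56 genes for the diet effect in controls.

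Diet effect in controls: 57 genes became 175 with DESeq2, 499 with no filter and 6 to 43 without 1 library of its groups. Diet effect in knockouts: 8 genes became 210 with DESeq2, 722 with no filter, 0 with only the groups compared, 19 with the replicate block and 0 to 36 without 1 library; 0 members became 2 with no filter. Interaction: 0 genes with edgeR's quasi-likelihood test (816 at an unadjusted p under 0.05) became 31 with DESeq2 and 269 with no filter, and 0 members became 1 with no filter. The cause was not tested for any of these. List counts under other scalings and without library 2 of the chow knockout group were also chosen after seeing the data.

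Replicate numbers and the block follow the sample titles. Over 15 pairs of libraries with the same number, deviations from the group mean had a mean correlation of -0.00869 (-0.199 to 0.231). The second chow knockout library is numbered 3 in its file, and against the libraries numbered 3 of the other groups its correlations were -0.147, -0.138 and 0.249; a block with that number was not run. The study's legend gives 3 libraries for that group, where 2 were deposited. The HFS groups alone were pooled, so pooling and diet cannot be told apart.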
